A study of Mus musculus with 30 samples.

Results

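Chemically induced pluripotent stem cells (CiPSC) are pluripotent lines obtained from somatic cells with small molecules and no transgene. Among the 30 samples of the study, 11 were CiPSC lines, and the chemical code of 2 of them, CiPS50 and CiPS45, held no T, the study's letter for tranylcypromine. These 2 lines were set against the 6 CiPSC lines with T that were normalised together with them. CiPS50 was compared with CiPS34, MNF CiPS7 and CiPS21 in set 1, and CiPS45 with MNF CiPS1, MAF CiPS3 and ADSC CiPS2 in set 2. A gene was followed up when the line without T read above, or below, all 3 lines with T in both sets. Of 11406 genes measured in both sets, 1213 met that rule.

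CiPS50 was made from mouse embryonic fibroblasts (MEF) with VC6F+Z and CiPS45 from MEF with FC6+Z, so CiPS45 also lacked V, valproic acid. In the study's code C is CHIR99021, 6 is an inhibitor of the TGF-beta receptor, F is forskolin and Z is DZNep. Among the lines with T, CiPS34 (VC6TFMP+Z) and CiPS21 (VC6TFDBS+Z) came from MEF and MNF CiPS7 (VC6TFS+Z) from neonatal fibroblasts (MNF). In set 2, MNF CiPS1 (VCT6FMDBR+Z) came from MNF and MAF CiPS3 (VC6TFDM+Z) from adult lung fibroblasts (MAF). ADSC CiPS2 (VC6TFMPS+Z) is titled as a line from adipose-derived stem cells, while its source field names adult lung fibroblasts. Set 1 also held OSKM iPS1, embryonic stem cells (ESC1, line R1) and MEF1, and set 2 held OSKM iPS2, ESC2 (line TT2), MNF, MAF and ADSC. OSKM iPSC are lines made with transgenes for Oct4, Sox2, Klf4 and c-Myc.

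Every line was grown on inactivated MEF feeders, and each is 1 line. All 6 lines with T carried further compounds that CiPS50 and CiPS45 did not have. In set 2 none of the 3 lines with T came from MEF by its title or source, so the cocktail and the cell of origin cannot be told apart there. The samples of both sets were each measured in 3 replicates, which the submitters combined into 1 value per gene, and whether these came from separate cultures is not stated. The spread in the tests below is therefore that between lines.

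Tranylcypromine blocks lysine demethylase 1 (LSD1, gene Kdm1a), which removes methyl groups from histone H3 lysine 4 as part of CoREST complexes. It also blocks the monoamine oxidases Maoa and Maob. DZNep, present in every cocktail here, acts on S-adenosylhomocysteine hydrolase (Ahcy) and through it on methyl transfer, including that by the polycomb enzyme Ezh2. The compounds act during induction, and the arrays were run on established lines.

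The summed pluripotency markers of both lines without T were near those of their lines with T. The 4 pluripotency markers with values were Pou5f1, Nanog, Esrrb and Zfp42, of 7 listed. They summed to an intensity of 32904 in CiPS50, against 22820 to 32758 in its lines with T and 195 in MEF1. The sum was 38469 in CiPS45, against 22671 to 39809. Esrrb made up most of it in both, at 26984 in CiPS50 and 26002 in CiPS45. Pou5f1 read 361 in CiPS50, below its lines with T (427 to 761) and ESC1 (772), while OSKM iPS1 read 331. In CiPS45 Pou5f1 read 1171.5, against 598 to 1314. Thy1, the one fibroblast marker of 8 with values, read 509 in CiPS50, above the 182 to 293 of its lines with T and far under the 42864 of MEF1, and 295 in CiPS45, against 125 to 1671. The summed level of 3 extraembryonic endoderm markers (Gata4, Gata6 and Sox17, of 5 listed) was 526 in CiPS50, against 496 to 780, and 660.5 in CiPS45, below the 987.5 to 1472 of its lines with T. The median intensity of a sample lay between 326 and 328 in set 1 and between 357 and 359 in set 2.

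No gene passed the test of lines without T against lines with T. In a limma fit with set as a term, 0 of 11406 genes (0.0%) had an adjusted p below 0.05 with a fold of at least 2. At an unadjusted p below 0.05 there were 399 genes (3.50%), and the lowest adjusted p was 0.999. The design leaves 5 residual degrees of freedom, and the median standard error of a difference was 0.33 on the log2 scale. A missing call is therefore no sign of equal levels, and all values that follow are descriptions.

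The range rule gave 418 genes above all 3 lines with T in both sets (3.66% of the genes measured) and 795 below (6.97%), 1213 together (10.6%). Nearly the same number, 1221 genes (10.7%), lay outside the range in opposite directions in the sets, 729 with CiPS50 above and CiPS45 below and 492 the other way. Across genes, the difference in set 2 was almost unrelated to that in set 1 (Pearson r = 0.03, Spearman rho = 0.02 over 11406 genes, which are not independent replicates). Without MNF CiPS7 the count of 1213 became 1842, and without MNF CiPS1 it became 1875. The median difference over all genes was 0.01 for CiPS50 and -0.10 for CiPS45 (log2).

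**Figure D1:**
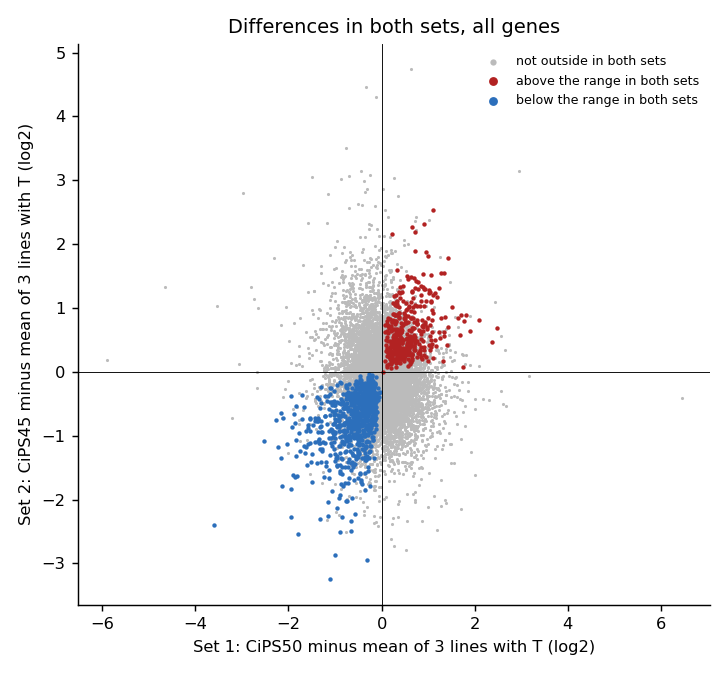
Each point is 1 of 11406 genes, with the log2 difference of CiPS50 from the mean of its 3 lines with T on the x axis and that of CiPS45 on the y axis. Genes above the range in both sets are red (418), genes below it in both sets are blue (795), and the cloud as a whole has no slope to the eye (r = 0.03).

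Most of the 1213 genes lay just outside the range. Their smaller distance from the nearest line with T had a median of 0.10 (log2) for genes above and 0.13 for genes below, and reached 0.92 and 1.37. Only 15 genes above and 55 below stood off by 0.5 or more in both sets. The genes above read brighter than most (median of the mean intensity 771, against 498 over all genes), and those below dimmer (470). The rule favours genes with a narrow range among the lines with T, and those genes had a median SD there of 0.33 for genes above and 0.34 for genes below, against 0.42 over all genes. At the edge of the rule, Mad1l1 was inside by 0.00055 (log2) and Pkm, pyruvate kinase, by 4e-06. Pkm read 65494 or above in CiPS50, CiPS45 and 3 of the lines with T, which is the ceiling of the scanner, so its place in the list is a saturated reading.

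No gene stood 2-fold or more above the range in both sets (0.0%), and 7 stood 2-fold or more below it (0.0614%): Rn7sk, Nupr1, Guca1a, Prph, Kdelr3, Sirt4 and Krtcap3. Sirt4 was the gene just inside that limit, at a distance of 1.02, and Hpn the one just outside, at 0.99. Leaving out 1 line with T at a time, which can only add genes, gave 8 to 25 such genes in either direction. There were 25 without MNF CiPS7, 12 without MNF CiPS1 and 16 without ADSC CiPS2. Each of the 7 was among the genes the rule chose for being low, so the values below describe them.

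Nupr1 encodes a small chromatin protein induced by stress, downstream of the transcription factor Atf4. Its intensity was 635 in CiPS50, against 2231 in CiPS34, 1613 in MNF CiPS7 and 2955 in CiPS21. In set 2 it was 600 in CiPS45, against 6022 in MNF CiPS1, 2565 in MAF CiPS3 and 2721 in ADSC CiPS2. Both lines without T were also below ESC1 (1922) and ESC2 (2490), and below OSKM iPS1 (4037) and OSKM iPS2 (1232). The fitted difference was -2.16 ± 0.40 (log2, SE, 2 lines against 6), with an adjusted p of 0.999.

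The promoter of Nupr1 is shown because it holds the letters of the composite C/EBP-ATF element through which Atf4 acts at several stress genes, here searched as TGATGCAA on both strands. The window is the 250 bases before the start of the gene at chr7:126625471-126625720 on the minus strand (RefSeq, GRCm38.p6), with the match in capitals as TTGCATCA.

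Nupr1 promoter: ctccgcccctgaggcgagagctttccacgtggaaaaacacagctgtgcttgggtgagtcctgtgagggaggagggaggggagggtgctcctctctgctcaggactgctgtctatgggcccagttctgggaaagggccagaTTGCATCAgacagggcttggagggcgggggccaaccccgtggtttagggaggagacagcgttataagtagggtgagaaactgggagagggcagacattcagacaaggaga

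The match begins 110 bases before the start of the gene. The same letters were in 260 of 32851 promoter windows of this length (0.791%). They were in 1 of the 6 genes with a window among the 7 listed above, and in 4 of 15 with a window among the stress genes described further on (Chac1, Herpud1, Slc7a11 and Nupr1). Nupr1 is counted in both groups, and the stress genes were listed for the response to which Atf4 belongs, so these shares are no test. A match describes the sequence only.

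Kdelr3 encodes a KDEL receptor, which returns escaped chaperones of the endoplasmic reticulum from the Golgi. It read 392 in CiPS50, against 2027 in CiPS34, 1241 in MNF CiPS7 and 1276 in CiPS21. It read 784.5 in CiPS45, against 2258 in MNF CiPS1, 3158 in MAF CiPS3 and 1956 in ADSC CiPS2. MNF CiPS7 and ADSC CiPS2 were the nearest lines with T, and the fitted difference was -1.77 ± 0.30. A low level was not limited to the lines without T, since OSKM iPS2 read 372.

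Rn7sk is the 7SK small nuclear RNA, which holds the elongation factor P-TEFb inactive. It read 61 in CiPS50, against 842.5 in CiPS34, 603 in MNF CiPS7 and 812 in CiPS21. It read 92 in CiPS45, against 255 in MNF CiPS1, 238 in MAF CiPS3 and 1872 in ADSC CiPS2. This was the widest of the 7 differences, -3.00 ± 0.72, and in set 2 its size leaned on ADSC CiPS2.

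Guca1a encodes a calcium sensor that regulates guanylate cyclase in photoreceptors. Its intensity was 606 in CiPS50, against 4033 in CiPS34, 1281 in MNF CiPS7 and 2503 in CiPS21. It was 887 in CiPS45, against 2342 in MNF CiPS1, 3342 in MAF CiPS3 and 10158 in ADSC CiPS2. The lines with T spread over a wide range in both sets, and the fitted difference was -2.12 ± 0.58.

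Prph encodes peripherin, an intermediate filament of peripheral neurons. It read 335 in CiPS50, against 1183 in CiPS34, 763 in MNF CiPS7 and 2415 in CiPS21. It read 342 in CiPS45, against 1087 in MNF CiPS1, 809 in MAF CiPS3 and 2094 in ADSC CiPS2. CiPS21 and ADSC CiPS2 were the highest of their sets, and the fitted difference was -1.90 ± 0.47.

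Sirt4, a sirtuin of mitochondria, and Krtcap3, named for keratinocytes, were nearest to the 2-fold limit. Sirt4 read 281.5 in CiPS50, against 676 to 1480 in the lines with T of set 1, and 578 in CiPS45, against 1171 to 1520 in those of set 2. Krtcap3 read 326.5 in CiPS50, against 665 to 1619, and 380 in CiPS45, against 773 to 869. The fitted differences were -1.50 ± 0.33 for Sirt4 and -1.36 ± 0.34 for Krtcap3.

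**Figure D2:**
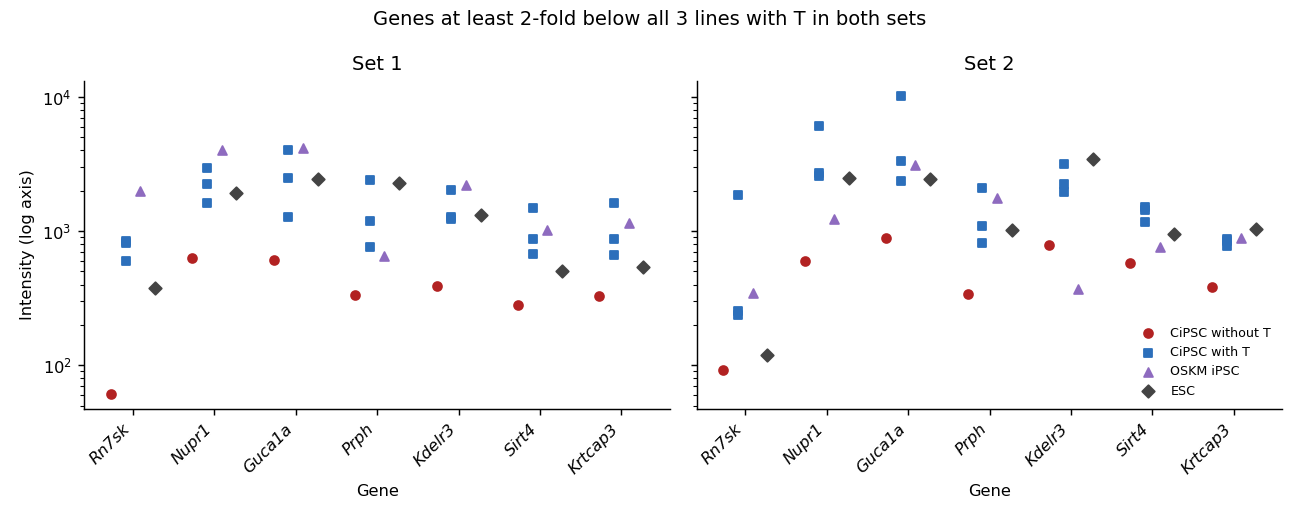
Intensity (log axis) of the 7 genes that read 2-fold or more below all 3 lines with T in both sets; each point is 1 line, with lines without T in red, lines with T in blue, OSKM iPSC in violet and ESC in grey. The red point is below all blue points in every column by construction, while for Kdelr3 in set 2 OSKM iPS2 (372) lies below CiPS45 (784.5).

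CiPSC with T from sets 3 and 5, which the rule did not use, showed how far these 7 genes vary among such lines. In set 3, CiPS WT1 and CiPS WT2 (both VC6TFMPS+Z) came from wild-type MEF. The CiPSC line of set 5 (VC6TF+Z) came from MEF, and its code differs from that of CiPS50 only by T. Sets were normalised separately, so each line is given relative to the ESC of its own set (log2). Nupr1 was at -1.60 in CiPS50 and -2.05 in CiPS45, against 1.37 in CiPS WT1, 1.21 in CiPS WT2 and -0.61 in the CiPSC line of set 5. Kdelr3 was at -1.76 in CiPS50 and -2.13 in CiPS45, against 0.32 in CiPS WT1, 0.58 in CiPS WT2 and 0.05 in the set 5 line. On this scale all 3 of these lines with T were above the 2 lines without it for both genes. For Nupr1 that order rests on the low ESC of sets 3 and 5 (243 and 199). The intensity of Nupr1 itself was 629 in CiPS WT1, 562 in CiPS WT2 and 131 in the set 5 line, beside 635 in CiPS50 and 600 in CiPS45. The rule chose these genes for being low in CiPS50 and CiPS45, which favours higher readings in other lines.

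Prph kept that order, at -2.76 in CiPS50 and -1.57 in CiPS45, against -0.14 in CiPS WT1, -0.36 in CiPS WT2 and 0.06 in the set 5 line. In set 5, however, Prph was dim in both the CiPSC line (58.7) and its ESC (56.25), so the 0.06 says little. The intensity of the set 5 line was below that of CiPS50 (335) and CiPS45 (342). Sirt4 was at -0.84 in CiPS50 and -0.71 in CiPS45, against 0.20 in CiPS WT1, 0.62 in CiPS WT2 and -0.71 in the set 5 line. Krtcap3 was at -0.73 in CiPS50 and -1.46 in CiPS45, against -0.22 in CiPS WT1, -0.64 in CiPS WT2 and -0.74 in the set 5 line. For Sirt4 and Krtcap3 the set 5 line was level with 1 of the lines without T.

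Rn7sk and Guca1a did not keep that order. Rn7sk was at -2.64 in CiPS50 and -0.38 in CiPS45, against -2.38 in CiPS WT1, -3.04 in CiPS WT2 and -2.86 in the set 5 line. Guca1a was at -2.00 in CiPS50 and -1.47 in CiPS45, against -2.57 in CiPS WT1, -2.40 in CiPS WT2 and -1.45 in the set 5 line. For both, CiPS WT2 was farther below its ESC than either line without T. ESC levels themselves differed between sets, with Nupr1 at 243 in ESC3 and 199 in ESC5.

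Among the genes above the range, Ms4a10 stood farthest off. These genes were chosen after their values were seen. Ms4a10, of the membrane-spanning 4A family, read 462 in CiPS50, against 108 in CiPS34, 195 in MNF CiPS7 and 244 in CiPS21. It read 293 in CiPS45, against 126 in MNF CiPS1, 93.3 in MAF CiPS3 and 52.8 in ADSC CiPS2, and OSKM iPS2 was higher still at 575.

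Porcn adds the lipid that Wnt proteins need for secretion. It read 4564 in CiPS50, against 992 to 2617 in the lines with T of set 1, and 4589 in CiPS45, against 906 to 3012 in those of set 2. H2-Eb1, a class II histocompatibility chain, read 2077 in CiPS50, against 549 to 996, and 1304 in CiPS45, against 519 to 757. Only 1 of its 2 probes met the rule. Evx1, a homeobox gene of the primitive streak, read 330 in CiPS50, against 55.8 to 147, and 135 in CiPS45, against 63.4 to 89.2.

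None of the direct targets of tranylcypromine was outside the range in the same direction in both sets. Kdm1a read 14803 in CiPS50, against 12028 to 13194 in the lines with T of set 1, and 14492 in CiPS45, against 13193 to 15029 in those of set 2, a fitted difference of 0.15 ± 0.23. Maoa read 158 in CiPS50, against 63.1 to 141, and 208 in CiPS45, against 145 to 281, a difference of 0.43 ± 0.38. Maob differed by -0.01 ± 0.30 and Kdm1b, the second LSD1-type demethylase, by -0.09 ± 0.25.

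Of 16 measured genes for LSD1 complexes and lysine demethylases, 2 were above the range and 0 below, against 3.66% above and 6.97% below over all genes. Both are demethylases of histone H3 lysine 27. Kdm6a read 6092 in CiPS50, against 1676 in CiPS34, 3615 in MNF CiPS7 and 1063 in CiPS21, and 1923 in CiPS45, against 662 in MNF CiPS1, 1187 in MAF CiPS3 and 1432 in ADSC CiPS2. Its difference was 1.30 ± 0.48, and OSKM iPS1 read 5230. Kdm6b was dim, at 196 in CiPS50, against 156 to 179, and 201 in CiPS45, against 49.8 to 152. The list's median difference was 0.12, against -0.03 over all genes, and it turned to -0.09 in set 2 alone.

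Deacetylases and acetyltransferases are given by line, since CiPS45 lacked V and CiPS50 had it. Hdac1 and Hdac2 were not measured in both sets. Of 17 measured genes 1 was above the range and 1 below, against 3.66% above and 6.97% below over all genes. Sin3a, the scaffold of a deacetylase complex, was above and Sirt3, a mitochondrial deacetylase, below. The list's median was 0.12 for CiPS50 and -0.18 for CiPS45, against 0.01 and -0.10 over all genes. The 2 lines were in different sets with different lines with T, and a part of V was not tested. Sirt3 read 2713 in CiPS50, against 3208 to 5186, and 3091 in CiPS45, against 3137 to 8788. Ahcy differed by -0.09 ± 0.43 and Ezh2 by 0.38 ± 0.32, both within the range in at least 1 set.

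Of 15 measured genes of amine oxidation and the methyl cycle, 2 were above the range and 2 below, against 3.66% above and 6.97% below over all genes. Sms, spermine synthase, read 990 in CiPS50, against 551 in CiPS34, 620 in MNF CiPS7 and 288 in CiPS21. It read 1285 in CiPS45, against 127 in MNF CiPS1, 129.5 in MAF CiPS3 and 656 in ADSC CiPS2. Mtap, which salvages the by-product of polyamine synthesis, read 5595 in CiPS50, against 2498 to 4224, and 4716 in CiPS45, against 3257 to 3848. The fitted difference was 1.82 ± 0.65 for Sms and 0.61 ± 0.28 for Mtap.

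Gnmt, the glycine methyltransferase that consumes S-adenosylmethionine, lay on the other side. It read 45.2 in CiPS50, against 123 to 246, and 131.5 in CiPS45, against 225.5 to 255, a difference of -1.39 ± 0.34. Aoc1, a diamine oxidase, was below 100 in all 8 lines. The list's median was -0.01.

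Of 17 measured genes of the unfolded protein and amino acid response, 0 were above the range and 3 below (Ddit3, Trib3 and Nupr1), against 3.66% above and 6.97% below over all genes. Of the 17, 12 (70.6%) were below the mean of the lines with T in both sets, against 28.6% of all genes. That difference was not tested, and Nupr1 is one of the genes the rule chose. Lists of similar share were glycolysis and hypoxia (64.3%), extraembryonic endoderm (63.6%), LIF and Stat3 (58.3%), interferon (56.2%) and mesoderm and muscle genes (54.5%). The median difference was -0.39, with -0.28 for CiPS50 and -0.33 for CiPS45, and stayed between -0.49 and -0.28 under every alternative tried. No gene of the list passed the test, and 3 had an unadjusted p below 0.05.

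Ddit3 encodes CHOP, a transcription factor of the stress response. It read 564 in CiPS50, against 1671 in CiPS34, 687 in MNF CiPS7 and 614 in CiPS21. It read 294 in CiPS45, against 1148 in MNF CiPS1, 1552 in MAF CiPS3 and 1821 in ADSC CiPS2. The set 1 gap to the nearest line was narrow and that of set 2 wide, for a difference of -1.50 ± 0.48. Trib3, a pseudokinase induced by CHOP and Atf4, showed the same pattern, at 2442 in CiPS50, against 2598 to 2924, and 896 in CiPS45, against 1570 to 3257.

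Atf4 itself differed between the sets. It read 6619 in CiPS50, against 9968 to 18764 in the lines with T, but 17465 in CiPS45, against 6246 to 15058. Slc7a3, a cationic amino acid transporter, had the largest of the 3 positive differences in the list (1.58 ± 0.61), at 7129 in CiPS50, against 1820 to 7428, and 7945 in CiPS45, against 1037 to 2592. Chac1, a glutathione-degrading enzyme, read 1108 in CiPS45, against 1597 to 6273, and lay within the range in set 1.

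Socs3 is the feedback inhibitor that LIF induces through Stat3. Of 12 measured LIF and Stat3 genes it alone was outside the range in the same direction in both sets, against 10.6% of all genes. It read 2838 in CiPS50, against 8300 in CiPS34, 5522 in MNF CiPS7 and 4990 in CiPS21. It read 649 in CiPS45, against 4879 in MNF CiPS1, 9290 in MAF CiPS3 and 5182 in ADSC CiPS2. OSKM iPS2 was nearly as low as CiPS45, at 738. Relative to the ESC of its set (log2), Socs3 was at -0.26 in CiPS50 and -3.50 in CiPS45. Among lines with T outside the rule, it was at 0.32 in CiPS WT1, 0.37 in CiPS WT2 and -0.94 in the set 5 line. The set 5 line was thus farther below its ESC than CiPS50. ESC1 (3407) was nearer to CiPS50 than to its lines with T, but ESC2 (7326) lay among the lines with T of set 2. The difference was -2.18 ± 0.48. Junb, an immediate early gene, differed by -0.83 ± 0.37, and the list's median was -0.19.

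Of 17 measured pluripotency factors 1 was above the range and 0 below, against 3.66% above and 6.97% below over all genes. Prdm14, which represses primed-state genes and DNA methyltransferases, read 1709 in CiPS50, against 767 to 1219, and 942 in CiPS45, against 444 to 896. Nanog differed by 1.41 ± 1.07: it read 892 in CiPS50, against 445 to 3507, and 4667 in CiPS45, against 139.5 to 1420. Pou5f1, which encodes Oct4, differed by -0.09 ± 0.40, made up of -0.66 in set 1 and 0.47 in set 2. Esrrb differed by 0.25 ± 0.42 and Zfp42 by 0.19 ± 0.38. The list's median was 0.25, made up of 0.03 for CiPS50 and 0.48 for CiPS45.

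Primed and epiblast genes had a median of 0.46, with 8 of 9 fitted differences above 0, against 5235 of 11406 over all genes. None was outside the range in the same direction in both sets, against 10.6% of all genes. Of the 9 genes, 4 were above the mean of the lines with T in both sets, against 21.3% of all genes. Otx2, a factor of the formative epiblast, read 806 in CiPS50, against 134 to 860, and 491 in CiPS45, against 113 to 247. Of 12 genes for DNA methylation and demethylation 1 was above the range, against 3.66% of all genes: Dnmt3l, the cofactor of the de novo enzymes. It read 3505.5 in CiPS50, against 1698 to 3472, and 3910 in CiPS45, against 1834 to 2737. OSKM iPS1 (3827) and OSKM iPS2 (8777) were higher than the line without T of their set. ESC1 (2379) was lower than CiPS50, and ESC2 (5703.5) was higher than CiPS45.

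Epithelial genes had 0 above and 3 below of 14, against 3.66% above and 6.97% below over all genes, and a median of -0.32. Cldn6, a tight junction protein, read 510.5 in CiPS50, against 4353 in CiPS34, 1039 in MNF CiPS7 and 5659 in CiPS21, and 1676 in CiPS45, against 2512 to 4615. Krt19, a keratin, read 143 in CiPS50, close to MNF CiPS7 at 165 and far from CiPS34 (1357) and CiPS21 (1497), and 783 in CiPS45, against 993 to 1766. Spint1, a protease inhibitor, read 2417 in CiPS50, against 2988 to 4547, and 1595 in CiPS45, against 2289 to 7224. The list's highest median among the alternatives was 0.04. The 2 trophoblast markers with values (Hand1 and Krt7, of 4 listed) summed to 896 in CiPS50, against 1094.5 to 2295, and 1809 in CiPS45, against 2715 to 3086, and their part in the epithelial values was not tested.

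Interferon-stimulated genes lay outside on both sides, 2 above and 3 below of 16, against 3.66% above and 6.97% below over all genes, with a median of -0.21. Bst2, tetherin, read 2114 in CiPS50, against 6376 to 9097, and 1953 in CiPS45, against 3624 to 7400, a difference of -1.58 ± 0.33. Relative to the ESC of its set (log2), Bst2 was at -0.37 in CiPS50 and -1.89 in CiPS45. Lines with T outside the rule were at 0.45 (CiPS WT1), -0.38 (CiPS WT2) and -0.82 (the set 5 line). Ubd, a ubiquitin-like modifier, read 2582 in CiPS50, against 1363 to 2018, and 2412.5 in CiPS45, against 508 to 1246, a difference of 1.06 ± 0.38. Ubd was also higher than in ESC, at 33.9 in ESC1 and 598 in ESC2. The lines with T other than MNF CiPS1 were above the ESC of their set as well, as were OSKM iPS1 (1876.5) and OSKM iPS2 (1169). B2m, the light chain of class I histocompatibility molecules, read 1168 in CiPS50, against 1185 to 4239, and 2398 in CiPS45, against 2756 to 5373.

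Of 23 imprinted genes 0 were above and 3 below, against 3.66% above and 6.97% below over all genes, with a median of -0.24. Sgce, an imprinted sarcoglycan, read 197 in CiPS50, against 293 to 1262, and 507 in CiPS45, against 674 to 2100. Inpp5f, a phosphatase, differed by -0.66 ± 0.27. Gnas, the stimulatory G protein subunit, differed by -1.25 ± 0.62, but only 1 of its 2 probes met the rule. Meg3, the noncoding RNA of the Dlk1-Dio3 region, was dim in all 8 lines (51.9 in CiPS50 and 85.8 in CiPS45, against 65.8 to 109 in the lines with T).

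Of 20 measured cell cycle genes none was outside the range in the same direction in both sets, against 10.6% of all genes. The median was 0.14, with 18 of 20 fitted differences above 0, against 5235 of 11406 over all genes, and 7 of 20 were above the mean of the lines with T in both sets, against 21.3% of all genes. Ccnd1, cyclin D1, was outside in set 2 alone, at 4331 in CiPS45, against 762 to 1753. Of 8 cholesterol synthesis genes 1 was below the range in both sets, against 6.97% of all genes. It was Lss, lanosterol synthase, at 395 in CiPS50, against 651 to 1006, and 812 in CiPS45, against 1042 to 1259. Cyp51, lanosterol demethylase, lay outside in opposite directions, at 1528 in CiPS50, against 618 to 771, and 849.5 in CiPS45, against 1424 to 2006. Extraembryonic endoderm genes had the lowest median of the 33 lists, -0.49 over 11 genes. The dim Apoa1 was their 1 member below the range in both sets, against 6.97% of all genes.

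**Figure D3:**
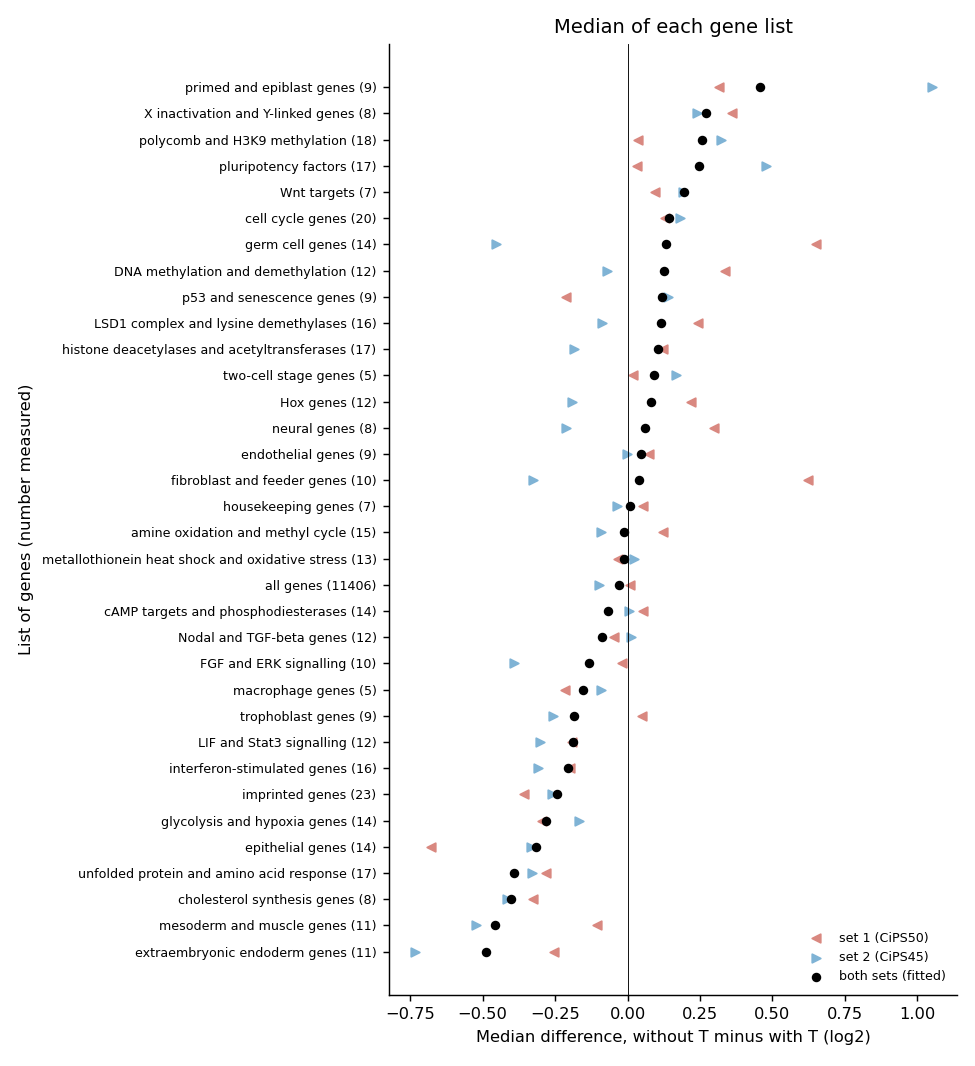
Median difference between lines without T and lines with T (log2) for each gene list, with the number of genes measured in brackets; triangles give CiPS50 in set 1 and CiPS45 in set 2, and black points the fit over both sets. The fitted medians run from -0.49 to 0.46, and for several lists, germ cell and fibroblast genes among them, the triangles lie on opposite sides of 0.

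The genes outside the range were unevenly spread over the chromosomes, as assigned by the RefSeq table of GRCm38.p6. On the X chromosome 35 of 339 genes (10.3%) were above the range and 5 (1.48%) below, against 3.66% and 6.97% of all genes. On chromosome 8 only 7 of 614 (1.14%) were above and 73 (11.9%) below. Leaving out 1 line with T at a time narrows the range, so these shares can only rise and are no check on the pattern. The X share above was then 10.6% to 15.6%, against 4.64% to 7.00% of all genes. For chromosome 8 the share below was 13.2% to 16.6%, against 8.13% to 10.0%.

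The X-linked genes above included Kdm6a, Sms and Porcn, described earlier, and Ubqln2, Ddx3x and Fmr1. Ubqln2, a ubiquilin that shuttles proteins to the proteasome, read 7648 in CiPS50, against 2556 to 5222, and 7224 in CiPS45, against 2896.5 to 4504. Ddx3x, an RNA helicase, read 12269 in CiPS50, against 8964 to 9651, and 18374 in CiPS45, against 11373 to 15029. Xist, the RNA that coats the inactive X chromosome, was dim in all 8 lines, at 92 in CiPS50, against 78 to 90, and 113 in CiPS45, against 58.4 to 78.2.

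The X as a whole stood out in CiPS50 more than in CiPS45. Each gene was first taken relative to its mean over all CiPSC lines of the set, with and without T. The values below are thus deviations from that mean and not levels of the X against the autosomes. Relative to the autosomes other than chromosome 8, the median deviation of X-linked genes was 0.28 (log2) in CiPS50, against -0.09 in CiPS34, 0.14 in MNF CiPS7 and -0.29 in CiPS21. It was at 0.06 in CiPS45, against -0.12 in MNF CiPS1, -0.04 in MAF CiPS3 and 0.11 in ADSC CiPS2. CiPS45 was thus inside the range of its lines with T. OSKM iPS1 (-0.29) was as low as CiPS21, and ESC1 (-0.23) was somewhat higher.

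On chromosome 8 the lines that stood out were lines with T. On the same scale of deviations, the median gene was at -0.08 in CiPS50, against -0.10 in CiPS34, 0.26 in MNF CiPS7 and -0.09 in CiPS21. It was at -0.11 in CiPS45, against -0.03 in MNF CiPS1, -0.09 in MAF CiPS3 and 0.23 in ADSC CiPS2. ESC1 (0.18) and ESC2 (0.14) were also high. What part the level of a whole chromosome has in the counts for single genes was not tested. The genes farthest below there were Bst2, Mef2b, a transcription factor of the MEF2 family, and Abhd8, at 616 in CiPS50, against 1058 to 1335, and 663 in CiPS45, against 1434 to 2071.

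**Figure D4:**
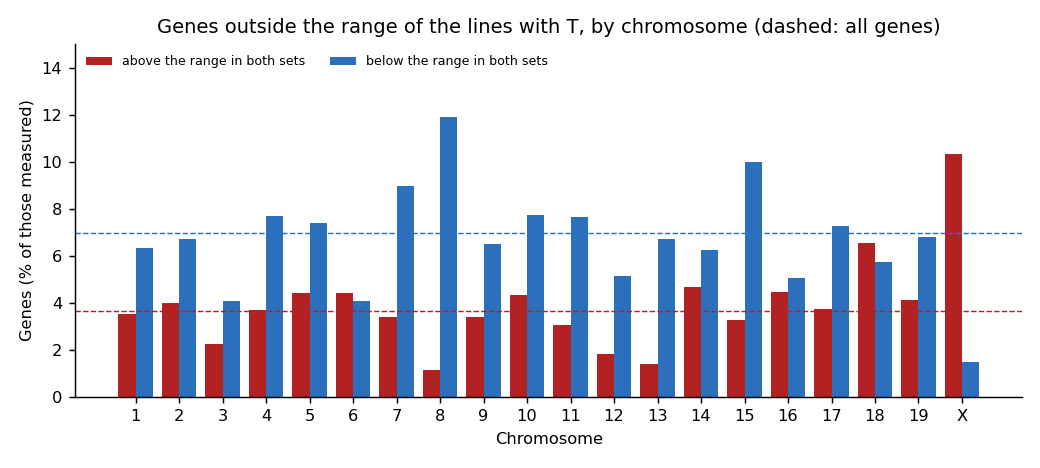
Share of the genes measured on each chromosome that lay above (red) or below (blue) all 3 lines with T in both sets; dashed lines give the shares over all genes (3.66% and 6.97%). The X has the largest red bar (10.3%) and chromosome 8 the largest blue bar (11.9%).

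Each line also had its own set of genes far from the others. CiPS50 stood 2-fold or more above its lines with T for 54 genes (0.473%) and below for 67 (0.587%), and CiPS45 above for 82 (0.719%) and below for 146 (1.28%). Slc25a45, a mitochondrial carrier, read 11234 in CiPS50, against 86.1 to 163 in the lines with T of set 1, and 87.7 in CiPS45. Cap1, an actin-binding protein, read 127 in CiPS50, against 2460 to 3791, while CiPS45 read 3266 and the line with T ADSC CiPS2 131.5. The Slc25a45 and Cap1 values were thus not shared by both lines without T, and the low Cap1 reading was also that of a line with T.

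CiPS50 also read high for Tnc, the matrix protein tenascin C (793, against 112 to 150), and Npr1, a natriuretic peptide receptor (1115, against 149 to 237). A high Tnc reading was not limited to CiPS50, since MAF CiPS3, a line with T of set 2, read 854, and MEF1 read 22513. CiPS50 read low for Phlda2, an imprinted placental growth regulator, at 399, against 2153 to 5829. In CiPS45 the splicing factor gene Snrnp70 read 2709, against 32.7 to 411, and ESC2 was higher at 5293. Clu, which encodes clusterin, read 420 in CiPS45, against 2176 to 2687. These genes were chosen after their values were seen.

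Similarity to ESC overlapped between the groups. Across genes, CiPS50 correlated with ESC1 at r = 0.946, against 0.922 for CiPS34, 0.939 for MNF CiPS7 and 0.946 for CiPS21. CiPS45 correlated with ESC2 at 0.966, against 0.920 for MNF CiPS1, 0.948 for MAF CiPS3 and 0.970 for ADSC CiPS2. The mean difference was 0.016 (exact permutation test within sets, two-sided p = 0.375, where 16 arrangements allow no p below 0.0625). Genes within 2-fold of ESC were 83.3% in CiPS50, against 74.8% to 84.2%, and 90.9% in CiPS45, against 75.3% to 92.8%.

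**Figure D5:**
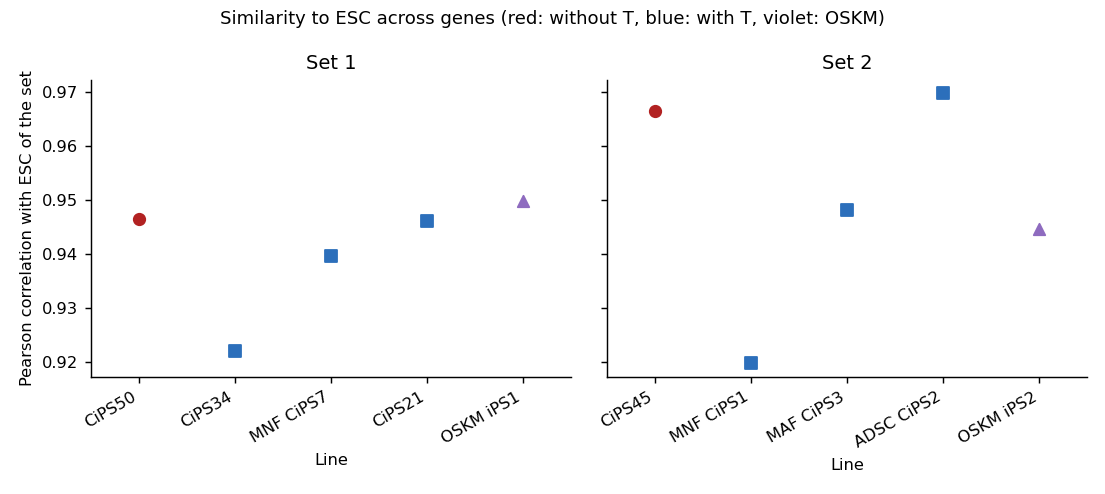
Pearson correlation across genes of each line with the ESC of its set, lines without T in red, lines with T in blue, OSKM iPSC in violet; the axis does not start at 0. CiPS50 (0.946) lies level with CiPS21 and CiPS45 (0.966) just under ADSC CiPS2 (0.970).

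Each line without T had a line with T to which it was closer than the lines with T were to each other. CiPS50 correlated most with MNF CiPS7 (r = 0.980), above each pair of lines with T in set 1 (0.959 to 0.965), and CiPS45 with ADSC CiPS2 (0.959), above those in set 2 (0.915 to 0.939). This holds for the closest line only and is no general closeness. CiPS50 was at 0.955 with CiPS34, below each pair of lines with T in set 1, and at 0.960 with CiPS21. CiPS45 was at 0.930 with MNF CiPS1 and 0.943 with MAF CiPS3. A further limma fit held all pluripotent samples of sets 1 and 2, so its variance also came from the lines with T and the OSKM iPSC. In it, the contrast of the 2 lines without T with the 2 ESC called 0 genes (0.0%). There were 434 genes at an unadjusted p below 0.05, and the lowest adjusted p was 0.999.

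Genes chosen by the rule were also compared with those that separate ESC from somatic cells. Of those above the range, 13.4% read 2-fold or more higher in ESC than in the somatic cells in both sets, against 11.8% of those below and 9.64% of all genes. Of those below the range, 13.5% read 2-fold or more lower in ESC, against 8.37% of those above and 10.7% of all genes. These differences are given without a test.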

How the data were processed

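Mouse OneArray v2 arrays (Phalanx, 1 colour, Cy5) were run on RNA of 30 samples. The deposited value table holds normalised intensity, 1 column per sample, per the labels and the values. Per the series' design text, the authors normalised each of 5 sets separately, with 3 replicates per sample in sets 1 and 2. The method of normalisation and of combining replicates is not given in the sources used here. The number of arrays limits precision. The platform annotation named 1 gene for 21876 of 26423 probes and none for 4547. The 12211 probes with values in both sets gave 11406 genes, using the probe with the highest mean where a gene had several. Intensities were taken to log2. Limma 3.58.1 (R 4.3.3) fitted group and set, with Benjamini-Hochberg adjustment over all 11406 genes and a call at adjusted p below 0.05 with a fold of 2. The scripts were tested on simulated data. The range rule compares log2 values within a set. Named genes were those 2-fold outside the range, up to 4 members per list outside the range, a short list, and others stated as chosen after their values were seen. Of the 21 genes of the short list, 13 had values. The members and the 33 gene lists were chosen with earlier results of these data known. Alternatives were quantile and median scaling, an offset or floor of 16, leaving out the dimmest 25% of genes, the mean of probes, leaving out lines, single sets and other fits.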

Additional observations from a re-analysis of the deposited data

Results flagged for a closer look

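Lefty2, a Nodal antagonist, read below all 3 lines with T in CiPS50 (568, against 671 to 1193) and above all 3 in CiPS45 (3459, against 129.5 to 1800). Meg3 likewise read 51.9 in CiPS50, against 91.1 to 109, and 85.8 in CiPS45, against 65.8 to 83.2. Trp53inp1, a p53-induced gene, read 710.5 in CiPS50, against 758 to 2149, and 1951 in CiPS45, against 232 to 1380. For these 3 genes the lines without T lay on opposite sides of the lines with T in the 2 sets, and the difference between sets was not tested.

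For Pkm, CiPS21 read 65494, where CiPS34 and MNF CiPS7 of its set read 63385, and was farthest from its set's mean among the 6 lines with T. All 3 lines with T of set 2 were near the same ceiling (65254 to 65497), and readings at it are saturated. It was the 1 gene of 98 results examined that passed Dixon's limit of 0.625 for 6 values, which chance passes about 1 time in 20.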

How the results depend on the processing

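With the lines of set 1 made from embryonic fibroblasts only, 4 genes were called between lines without and with T (A230020J21Rik, Cap1, Krt8 and Slc25a45), 7436 lay outside the range and 506 by 2-fold. The rule then holds in 1 set with 2 lines with T, which widens it by construction. Set 1 alone gave 5388 genes outside the range and 121 by 2-fold, and set 2 alone 5169 and 228, since 1 set was then enough. Every other alternative called 0 genes, with 149 to 541 at an unadjusted p below 0.05 in limma. Leaving out 1 line with T at a time, which can only add genes, gave 1534 to 1875 outside the range and 8 to 25 by 2-fold. The counts were 1842 and 25 without MNF CiPS7, 1875 and 12 without MNF CiPS1, and 16 by 2-fold without ADSC CiPS2. The scaling, offset, floor, dim-gene and probe alternatives gave 928 to 1219 outside the range and 5 to 7 by 2-fold, the 5 with an offset of 16. Against ESC, 1 gene was called without CiPS45 and in set 1 alone (Slc25a45) and 2 without ESC2 (Sardh and Ubd), so leaving out 1 sample gave 0 to 2. The difference in correlation with ESC stayed positive, between 0.00907 and 0.0259. Named genes changed sign in 33 of 1793 recomputed values and list medians in 57 of 626. No paired analysis was possible because the labels give the lines of the groups no shared replicate number. Saturated readings (60000 or above in 1 of the 8 lines) touched 6 genes, 2 of them outside the range.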
